A study of Mus musculus with 10 samples.

Results

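Chromosome 1 of the mouse was examined at the 3′ ends of its transcripts in embryonic stem cells (ESC) with altered DIDO3. The chromosome was chosen by the values themselves, because its median change in one of the mutant lines stood apart from that of every other chromosome, so the size of that shift is given as a description without a test. Its members were all quantified features with chromosome 1 as their position, 2577 of 43031. A feature was an annotated 3′ untranslated region joined to the 2 kb that follow it. Features with the same coordinates and strand were summed to 1 site, which left 1734 sites of 28706, with 1133 gene symbols. The sites lay between positions 3212482 and 195141189 of build mm10, 862 on the plus strand and 872 on the minus strand, with a median length of 2954 bases. Of the 1734 sites, 148 were at 0 in every library, 1170 were above 0 in every library and 416 were above 0 in only some of them. Sites above 0 in every library of a comparison were tested, which was 1191 for DIDO3ΔCT+HADIDO3 and 1201 for DIDO3ΔE16.

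The cells were C57BL/6 mouse ESC, analysed as 3 genotypes by stranded RNA sequencing. WT cells carried no Dido1 mutation and gave 4 labelled samples, of which replicates 2 and 3 were held in a single library, so that 3 WT libraries were counted. DIDO3ΔE16 cells (3 libraries) derived from floxed exon 16 of Dido1, the exon that encodes the large C-terminal part of DIDO3, removed with a Sox2-Cre. DIDO3ΔCT+HADIDO3 cells (3 libraries) derived from a line with a constitutive deletion of the same C terminus and expressed HA-tagged full-length DIDO3 from a stable transfection selected with puromycin. The DIDO3ΔCT+HADIDO3 libraries thus came from a transfected and selected derivative and differed from WT in more than the Dido1 allele. ESC were grown with LIF on mitomycin C-treated embryonic fibroblasts or on gelatin, so a sample could hold fibroblast RNA. The labels did not say whether replicates came from separate cultures, and p-values then measure only the spread between these samples. All samples were RNA. The DNA of the lines was not analysed here.

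DIDO3 is the largest protein of the Dido1 gene and is known as a chromatin-associated factor that binds RNA polymerase II and takes part in transcription termination and RNA processing. The 3′ end of a transcript is set where the nascent RNA is cut downstream of a polyadenylation signal, most often AAUAAA, while the polymerase goes on for some distance before it leaves the DNA. Reads over a 3′ untranslated region and its downstream flank therefore follow the level of the gene and, to a lesser part, transcription past its end. A set of genes on a single chromosome shares no function, and the comparison below asks how far the chromosome moved as a block and which of its genes moved more, less or the opposite way.

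The 3′ ends of 6 sites on which the results turn are shown first. Each is the last 30 bases before the annotated end in GENCODE M21 on build mm10, written 5′ to 3′ on the sense strand, with the polyadenylation hexamer AATAAA in capitals (2 overlapping copies in Slc11a1). Slc11a1 (chr1:74386022-74386051, plus strand) and Apoa2 (chr1:171226350-171226379, plus strand) are shown as the ends of genes far above and far below the chromosome in DIDO3ΔCT+HADIDO3. Armc9 (chr1:86278255-86278284, plus strand) and Wdfy1 (chr1:79702262-79702291, minus strand) are shown for DIDO3ΔE16. Tfcp2l1 (chr1:118685139-118685168, plus strand) and Lamc1 (chr1:153218922-153218951, minus strand) are shown as abundant transcripts, the former near the chromosome median in DIDO3ΔCT+HADIDO3 and the latter below it.
Slc11a1: tgtcctcacatatataaAATAAATAAAtct
Apoa2: ccAATAAAtgcggaaggagttaaacttcat
Armc9: tgcccagccaAATAAAatgttttaatttca
Wdfy1: acAATAAAataccccttgcttgttccttaa
Tfcp2l1: atgcaAATAAAaccatttgtactaaaccca
Lamc1: tAATAAAatctgaatatttgtaacccttta

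The hexamers AATAAA and ATTAAA were searched on the sense strand only, in the last 30 bases of the 871 chromosome 1 sites whose annotated transcript ended exactly at the site's untranslated region. AATAAA was present in 374 of them (42.9%), and ATTAAA without AATAAA in 104 (11.9%). Over 12439 such sites elsewhere, chromosome 18 not included, AATAAA was present in 45.9% and ATTAAA alone in 11.6%. The median log2 fold change of chromosome 1 sites in DIDO3ΔCT+HADIDO3 was 0.35 with AATAAA (n = 256 tested), 0.24 with ATTAAA (n = 72) and 0.34 with neither (n = 257). The median was thus positive with and without a hexamer, which does not hold for every single site.

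The libraries held 1.46 to 2.62 Gb of aligned sequence over the features. At the most distal 3′ site of Dido1, on chromosome 2, WT libraries held 17.9, 16.8 and 13.7 TPM (the length-normalised share of a site among all transcripts of its library), DIDO3ΔE16 libraries 0.546, 0.511 and 0.307 and DIDO3ΔCT+HADIDO3 libraries 12.1, 11.5 and 10.9. At the other Dido1 sites DIDO3ΔE16 means were 6.62 TPM against 50.3 in WT (-2.97, limma adjusted p = 4.77e-05) and, in the other direction, 89.5 against 4.82 (4.12, limma adjusted p = 3.57e-05), with 44.8 and 8.13 in DIDO3ΔCT+HADIDO3. The loss of the distal site was thus seen in the libraries labelled DIDO3ΔE16, and reads of the endogenous gene and of the HADIDO3 transgene cannot be told apart. The 8 ESC markers had summed levels of 4371 to 5622 TPM in WT, 6001 to 6495 in DIDO3ΔE16 and 4782 to 6685 in DIDO3ΔCT+HADIDO3. These sums are uneven within groups because Esrrb, at 1155 to 1903 TPM in 6 libraries, was at 5.18 and 8.78 in WT replicates 1 and 4 and at 9.70 in DIDO3ΔCT+HADIDO3 replicate 2, and Nanog, at 664 to 1177 TPM elsewhere, was at 3.10 in WT replicate 4, so no difference between groups is read from them. Such single low libraries were a property of sites that several deposited features describe with the same coordinates (4 for Nanog and 3 for Esrrb) or that share bases with another site. A library at under 10% of its group's median was found, among chromosome 1 sites with a median of at least 20 TPM, at 0 of 251 sites with 1 feature and no shared base, at 29 of 166 with several features (17.5%) and at 16 of 64 with shared bases. Elsewhere it was found at 0.127%, 17.8% and 20.1% of such sites, the cause was not tested, and a near-zero value at such a site is not read as loss of the transcript. Members of the gene lists below that held such a library included Tcea1, Idh1, Bcs1l, Fn1 and Nuf2. The 8 fibroblast markers summed to 60.3 to 68.2, 108 to 111 and 55.8 to 59.1 TPM, and 4 of the 8 were above 0 in all 9 libraries. Among them Col1a1, a defining fibroblast collagen, was at 10.2 to 13.4 TPM in WT, 28.0 to 29.9 in DIDO3ΔE16 and 0.957 to 1.51 in DIDO3ΔCT+HADIDO3. The library names of WT replicates 1 and 4 began with C7A9, and those of WT replicate 2-3 and all mutant libraries with C79M. The labels did not say what this name prefix stands for.

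In DIDO3ΔCT+HADIDO3 cells chromosome 1 gave a larger part of the RNA than in WT cells. Its share of the summed TPM was 5.03, 4.91 and 4.96% in WT libraries (mean 4.96% ± 0.0567, SD, n = 3) and 5.82, 5.94 and 5.97% in DIDO3ΔCT+HADIDO3 libraries (5.91% ± 0.0785, SD, n = 3). In DIDO3ΔE16 libraries it was 4.86, 4.83 and 5.02% (4.90% ± 0.10, SD, n = 3). All DIDO3ΔCT+HADIDO3 shares lay above all WT shares, whereas the DIDO3ΔE16 and WT shares overlapped. The median log2 fold change over the 1191 tested sites was 0.29 in DIDO3ΔCT+HADIDO3, against -0.03 over the sites of the other chromosomes. In DIDO3ΔE16 both medians were -0.01. Set directly against each other, without WT, DIDO3ΔE16 was below DIDO3ΔCT+HADIDO3 by a median of -0.27 on chromosome 1 and above it by 0.03 elsewhere.

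The displacement was alike in each DIDO3ΔCT+HADIDO3 library. The median log2 ratio of a library to the WT mean was 0.31, 0.29 and 0.31 on chromosome 1 and -0.01, -0.02 and -0.02 elsewhere. Against WT replicate 2-3 alone, which shared the name prefix, the chromosome 1 medians were 0.29, 0.26 and 0.29. The DIDO3ΔE16 libraries stood at 0.01, -0.02 and 0.00, and each WT library against the other WT libraries at 0.02, 0.00 and -0.01. The medians of the other chromosomes ran from -0.13 (chromosome X) to 0.04 (chromosome 11) in DIDO3ΔCT+HADIDO3 and from -0.09 (chromosome 18) to 0.04 (chromosome 17) in DIDO3ΔE16.

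**Figure D1:**
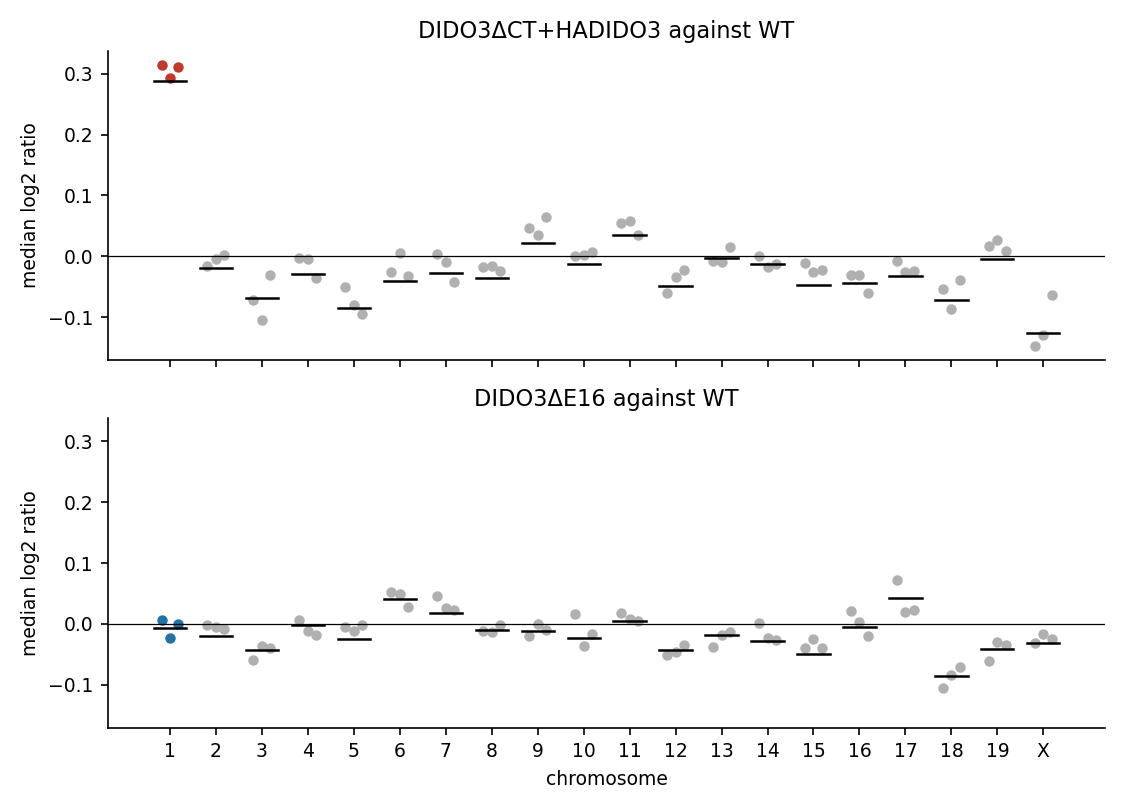
Median log2 ratio to WT of the tested sites of each chromosome (x axis: chromosome, y axis: median log2 ratio), with 1 dot for each mutant library against the mean of the WT libraries and a black bar for the median of the fitted log2 fold changes. Chromosome 1 is coloured, and in DIDO3ΔCT+HADIDO3 its bar stands at 0.29 with the other chromosomes between -0.13 and 0.04, while in DIDO3ΔE16 it stands at -0.01 within the range of the others.

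The whole distribution moved rather than a tail of it. In DIDO3ΔCT+HADIDO3 the 25th percentile of the chromosome 1 sites was at -0.10 and the 75th at 0.70, and the distance between them was 0.80 on chromosome 1 and 0.80 on the other chromosomes. A log2 fold change above 0 was found at 829 of 1191 sites (69.6%), against 47.8% elsewhere. The remaining 362 sites (30.4%) were at or below 0. In DIDO3ΔE16 591 of 1201 sites (49.2%) were above 0, against 48.9% elsewhere. The 5th and 95th percentiles on chromosome 1 in DIDO3ΔCT+HADIDO3 were -1.09 and 1.76, so single genes moved over a far wider range than the chromosome did.

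**Figure D2:**
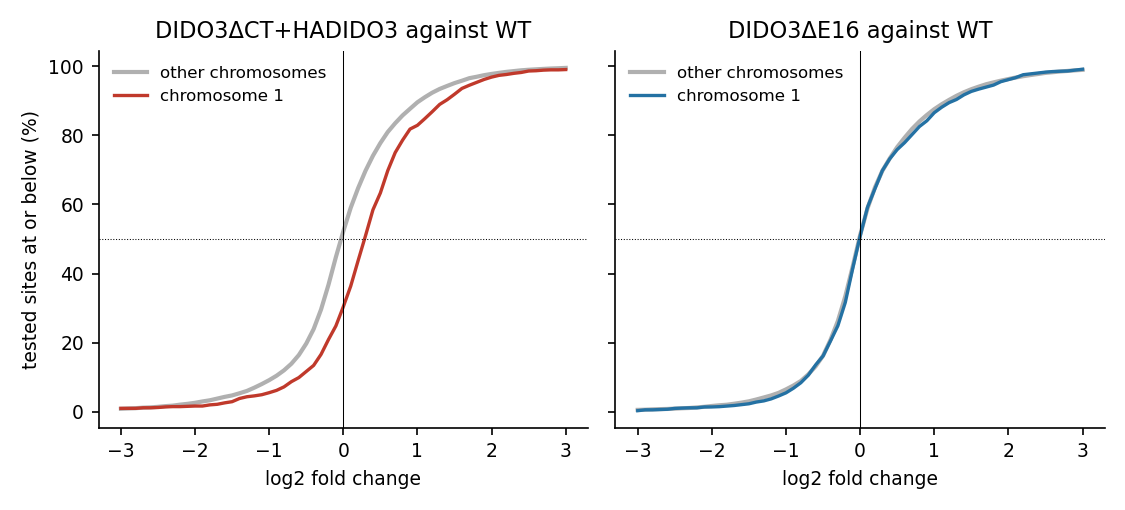
Share of tested sites (y axis, percent) at or below each log2 fold change against WT (x axis) for chromosome 1 (coloured) and all other chromosomes (grey). In DIDO3ΔCT+HADIDO3 the chromosome 1 curve runs to the right of the grey curve from -2.8 upward, with 30.4% of sites at or below 0. In DIDO3ΔE16 the curves lie close to each other.

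The displacement in DIDO3ΔCT+HADIDO3 was seen at every level of expression. At a mean of 1 to 5 TPM the chromosome 1 median was 0.56 (n = 233 sites), which was 0.38 above the sites of the same level elsewhere. It was 0.35 at 5 to 20 TPM (n = 284, 0.33 above), 0.22 at 20 to 100 TPM (n = 354, 0.34 above) and 0.14 above 100 TPM (n = 145, 0.31 above). Below 1 TPM it was 0.26 (n = 175), 0.11 above the others. The fall of the median from the 1 to 5 TPM class to the most abundant class was therefore shared with the rest of the genome, and the distance to it stayed between 0.31 and 0.38 in the 4 classes from 1 TPM up. Sites on the plus and minus strands had medians of 0.30 and 0.27. Sites that shared no base with another site of their strand had a median of 0.27 (n = 982) and those that did of 0.35 (n = 209). Those with 1 feature and no shared base, where single low libraries were rare, had a median of 0.30 (n = 634). Sites up to 2500 bases long had a median of 0.32, and those of 2500 to 4000 bases and above 4000 bases both of 0.28.

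The displacement ran along the length of the chromosome. Of 20 bins of 10 Mb, 16 held 20 or more tested sites, and in DIDO3ΔCT+HADIDO3 all 16 had a median above 0, in each of the 3 libraries too. The lowest was 0.13 in the first bin (0 to 10 Mb, n = 23) and the highest 0.57 in the last (190 to 200 Mb, n = 54), where 83.3% of sites were above 0. The bin from 10 to 20 Mb followed with 0.45. One of the 4 bins with under 20 sites, at 140 to 150 Mb, had a median of -0.03 (n = 8). In DIDO3ΔE16 6 of the 16 bins were above 0 and 10 below, between -0.19 (60 to 70 Mb) and 0.19 (90 to 100 Mb). The spread of the 16 medians was the same in both lines (SD 0.11), so the lines differed in the height of the profile and not in how much it varied. On the other chromosomes 5 of 224 bins of this kind reached the chromosome 1 median of 0.29 in DIDO3ΔCT+HADIDO3. The lowest chromosome 1 bin, 0.13, was reached by 20 of the 224. The highest of these bins stood at 1.11, above every bin of chromosome 1.

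**Figure D3:**
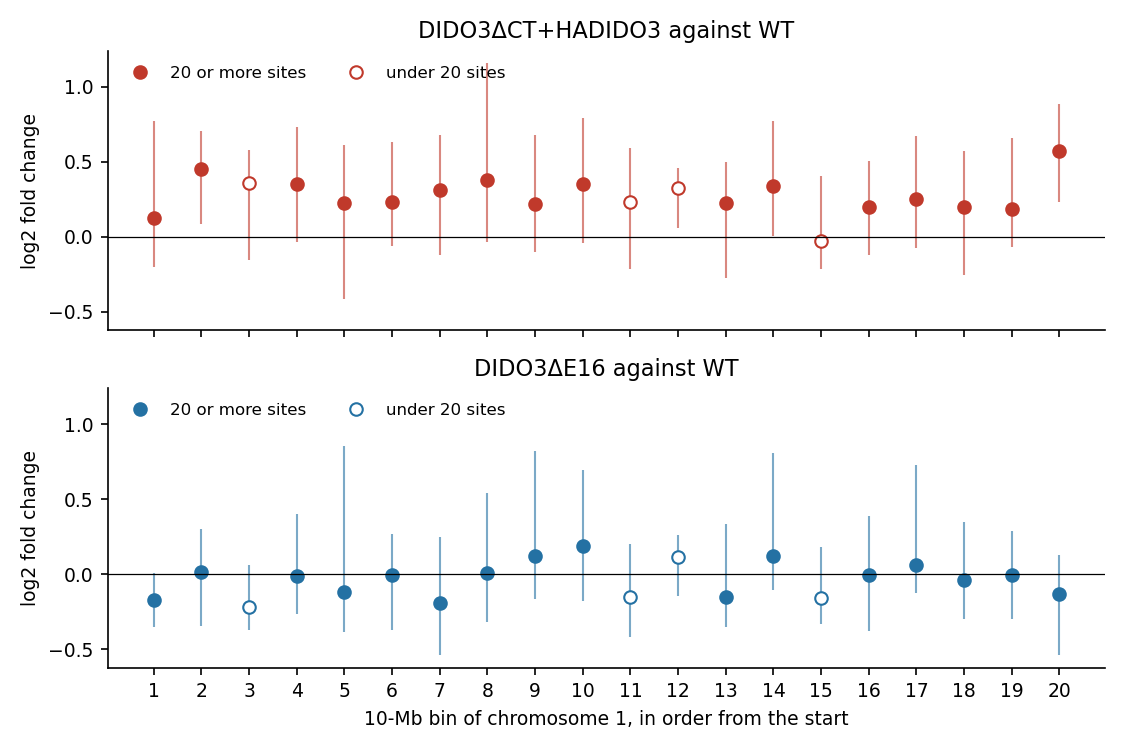
Median log2 fold change against WT (y axis) of the tested sites in each 10 Mb bin of chromosome 1 in order from its start (x axis), with the 25th to 75th percentile as a line and open circles for bins with under 20 sites. In DIDO3ΔCT+HADIDO3 the filled circles lie between 0.13 and 0.57, and in DIDO3ΔE16 between -0.19 and 0.19.

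To ask which sites exceeded or escaped the shift, the median deviation of the chromosome was taken off each library and every site was tested against the chromosome's own median. A site was called departing where it lay at least 0.7 (log2) from that median with an adjusted p below 0.05 (limma, Benjamini-Hochberg over the sites of all chromosomes). The same thresholds without centring gave sites called higher or lower than WT. These last counts reuse the values by which the chromosome was chosen, and nothing is read from them. In DIDO3ΔCT+HADIDO3 211 of the 1191 sites (17.7%) were called higher, against 10.1% of all sites of the genome, and 58 (4.87%) lower, against 7.24%. All 3 mutant libraries were above all WT libraries at 550 sites (46.2%, against 26.4%) and below them at 175 (14.7%, against 28.3%). In DIDO3ΔE16 144 sites (12.0%, against 10.2%) were called higher and 63 (5.25%, against 4.94%) lower. All 3 DIDO3ΔE16 libraries were above all WT libraries at 297 sites (24.7%, against 24.0%) and below them at 337 (28.1%, against 26.8%).

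After centring, the chromosome had about as many departing sites as the rest of the genome. In DIDO3ΔCT+HADIDO3 131 sites (11%) departed above the chromosome, against 10.1% over all chromosomes treated in the same way, and 88 (7.39%) departed below, against 6.89%. In DIDO3ΔE16 146 (12.2%, against 10.3%) departed above and 60 (5.0%, against 4.70%) below. The shares lay close to the background in both lines. In DIDO3ΔCT+HADIDO3 the bin from 70 to 80 Mb held 24 sites departing above and 5 below among 101, and the bin from 170 to 180 Mb held 14 departing below and 11 above among 101. The genes described below were taken from the 6 furthest above and the 6 furthest below in each line, among departing sites with at least 5 TPM in either group, no base shared with another site of their strand and no overlap between the groups. The lines were compared with the same WT libraries, so their values are set side by side and no agreement between them is counted.

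The sites furthest above the chromosome in DIDO3ΔCT+HADIDO3 were an unnamed site and ends of Nuf2, Atp2b4, Slc11a1, C130026I21Rik and Slc26a9. Slc11a1 (chr1:74385507-74388051, plus strand), a divalent metal transporter of phagosomes, was at 2.24, 2.25 and 2.53 TPM in WT, 23.4, 25.8 and 23.6 in DIDO3ΔCT+HADIDO3 and 1.76, 1.99 and 1.68 in DIDO3ΔE16. It stood 2.94 ± 0.10 (log2, SE) above the chromosome in DIDO3ΔCT+HADIDO3 (limma adjusted p = 0.000101). The groups did not overlap, and DIDO3ΔE16 was not above WT in any library. Atp2b4 (chr1:133735990-133737990, minus strand), a calcium pump of the plasma membrane, was at 1.05, 1.40 and 0.684 TPM in WT, 11.5, 10.5 and 13.1 in DIDO3ΔCT+HADIDO3 and 1.78, 2.52 and 1.99 in DIDO3ΔE16. Its distance above the chromosome was 3.03 ± 0.26 (limma adjusted p = 0.000988). It was a minor end of the gene: the most abundant tested Atp2b4 site, which shares bases with another, had means of 10.4 TPM in WT and 31.9 in DIDO3ΔCT+HADIDO3 and did not pass (1.49, limma adjusted p = 0.475, and 0.22 to 2.45 when 1 library was left out). Another end that shares no base also departed above in both lines, with means of 1.78 TPM in WT, 5.91 in DIDO3ΔE16 (1.63, limma adjusted p = 0.00112) and 5.45 in DIDO3ΔCT+HADIDO3 (1.18, limma adjusted p = 0.00136). Slc26a9 (chr1:131769249-131772405, plus strand), an anion transporter of epithelia, was at 1.08, 1.09 and 0.952 TPM in WT and 5.01, 6.66 and 8.0 in DIDO3ΔCT+HADIDO3, 2.14 ± 0.18 above the chromosome (limma adjusted p = 0.00105).

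A minor site of Nuf2 (chr1:169508119-169510315, minus strand), which encodes a subunit of the kinetochore complex that holds microtubules, was at 0.465, 0.720 and 0.354 TPM in WT and 7.82, 7.03 and 6.26 in DIDO3ΔCT+HADIDO3, with 0.613, 0.604 and 0.381 in DIDO3ΔE16. It stood 3.20 ± 0.26 above the chromosome (limma adjusted p = 0.00088). The main Nuf2 site was far more abundant and did not depart, with 44.5, 3.41 and 40.7 TPM in WT and 58.5, 57.0 and 60.0 in DIDO3ΔCT+HADIDO3 (1.28 above the chromosome, limma adjusted p = 0.422). That distance rests on WT replicate 2-3, without which it was 0.077 (limma adjusted p = 0.307). C130026I21Rik (chr1:85110418-85112444, minus strand) was named in both lines, with 0.972, 1.05 and 1.33 TPM in WT, 7.66, 7.60 and 8.21 in DIDO3ΔCT+HADIDO3 and 11.7, 9.03 and 9.40 in DIDO3ΔE16. Its distances above the chromosome were 2.33 ± 0.15 (limma adjusted p = 0.000488) and 3.02 ± 0.19 (limma adjusted p = 0.000509). The gene belongs to a family of near-identical copies on this chromosome, among which reads could be split, so its level is uncertain. The site furthest above, uc007avm.2 (chr1:43189639-43191758, plus strand), had no gene symbol and went from 0.621, 0.737 and 0.070 TPM in WT to 37.6, 36.0 and 32.3 in DIDO3ΔCT+HADIDO3 (5.87 ± 0.66 above the chromosome, limma adjusted p = 0.0025). It was at 1.05, 1.59 and 1.25 TPM in DIDO3ΔE16.

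Genes that escaped the shift furthest downward in DIDO3ΔCT+HADIDO3 included the DNA sensor Aim2, whose protein starts an inflammasome on cytosolic DNA. Its first site (chr1:173462008-173464320, plus strand) was at 89.6, 94.0 and 81.4 TPM in WT, 71.6, 75.6 and 81.9 in DIDO3ΔE16 and 2.70, 3.4 and 2.50 in DIDO3ΔCT+HADIDO3. Its distance from the chromosome was -5.29 ± 0.14 (limma adjusted p = 6.42e-05). Its second site (chr1:173465019-173468036) was at 81.2, 73.6 and 67.8 TPM in WT and 2.62, 3.51 and 2.78 in DIDO3ΔCT+HADIDO3 (-4.99 ± 0.13, limma adjusted p = 6.42e-05). Both ends of the gene thus fell together, from about the same level to about the same level. Apoa2 (chr1:171226267-171228379, plus strand), an apolipoprotein of high-density lipoprotein, was at 9.54, 10.9 and 11.7 TPM in WT, 6.52, 7.73 and 8.57 in DIDO3ΔE16 and 0.175, 0.242 and 0.179 in DIDO3ΔCT+HADIDO3 (-5.54 ± 0.17, limma adjusted p = 9.13e-05). The Apoa2 site overlaps a site of the opposite strand, and no strand option was stated for the quantification, so reads of both strands may be counted there.

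Col5a2 and Ptgs2 moved in opposite directions in the lines. Col5a2 (chr1:45372331-45376083, minus strand), a chain of the fibril-forming collagen V, was at 6.55, 6.01 and 6.03 TPM in WT, 14.9, 16.3 and 15.7 in DIDO3ΔE16 and 0.105, 0.131 and 0.052 in DIDO3ΔCT+HADIDO3. It departed below the chromosome in DIDO3ΔCT+HADIDO3 (-5.37 ± 0.21, limma adjusted p = 0.000152) and above it in DIDO3ΔE16 (1.27 ± 0.07, limma adjusted p = 0.000372). Ptgs2 (chr1:150105783-150110234, plus strand), the inducible cyclooxygenase of prostaglandin synthesis, was at 10.2, 10.9 and 8.59 TPM in WT, 18.9, 20.2 and 23.5 in DIDO3ΔE16 and 0.518, 0.804 and 0.686 in DIDO3ΔCT+HADIDO3. Its departures were -4.09 ± 0.18 (limma adjusted p = 0.000191) and 1.02 ± 0.12 (limma adjusted p = 0.00282). Fibroblast markers elsewhere in the genome moved with the groups in the same order. Col1a2 was at 16.7 to 20.0 TPM in WT, 36.5 to 39.2 in DIDO3ΔE16 and 0.229 to 0.246 in DIDO3ΔCT+HADIDO3, and Postn at 1.73 to 2.05, 2.97 to 3.90 and 0 to 0.057. Thy1 and Pdgfra did not follow that order: Thy1 was highest in DIDO3ΔCT+HADIDO3 (52.2 to 56.1 TPM, against 18.1 to 19.7 in WT and 29.6 to 33.9 in DIDO3ΔE16) and Pdgfra was at 11 to 13.0 in WT, 3.48 to 5.02 in DIDO3ΔE16 and 0.897 to 2.33 in DIDO3ΔCT+HADIDO3. The part of fibroblast RNA in these results was not tested, and in bulk samples fewer cells of a type and less RNA per cell cannot be told apart.

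**Figure D4:**
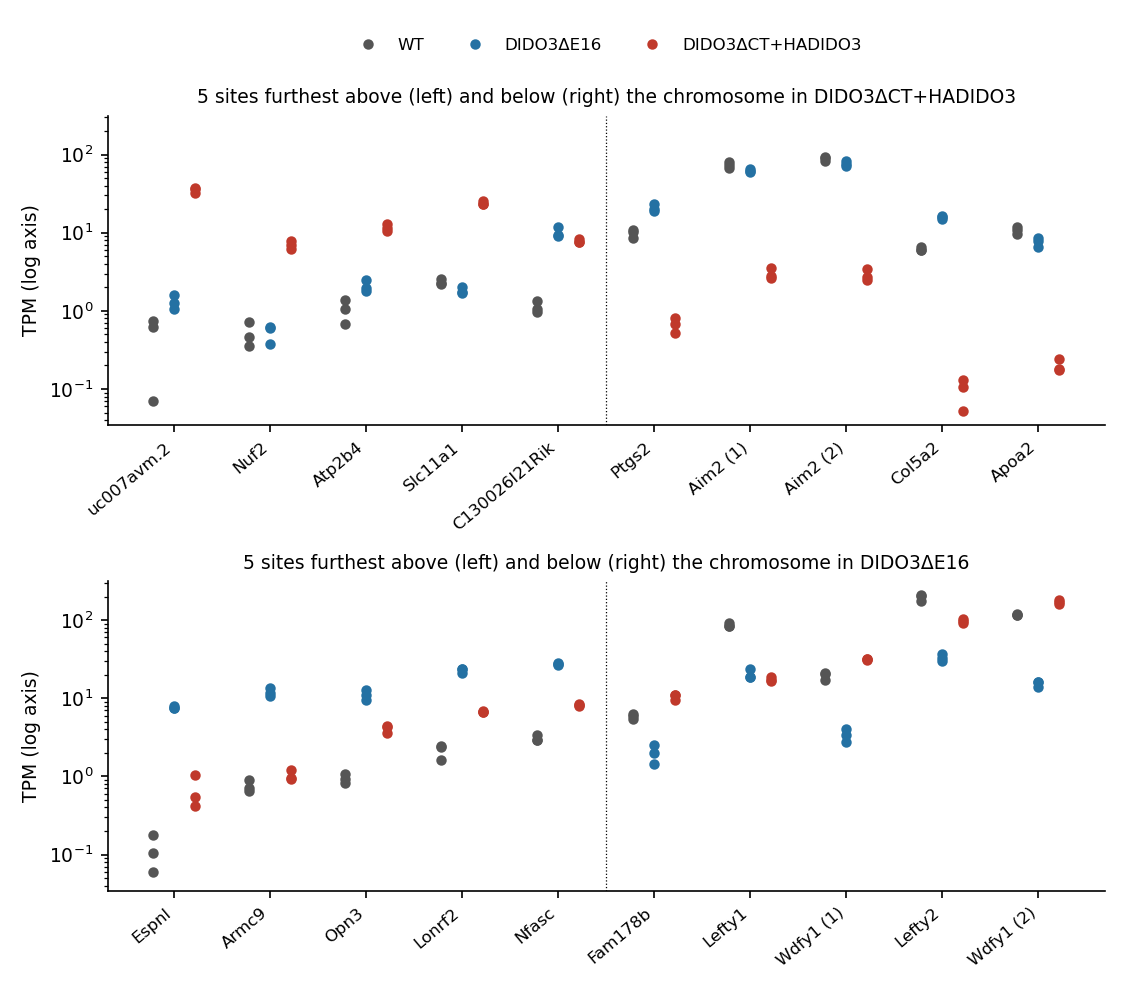
TPM on a log axis (y axis) of the sites furthest above and below the chromosome (x axis: gene) in DIDO3ΔCT+HADIDO3 (upper panel) and DIDO3ΔE16 (lower panel), with 1 dot for each of the 3 libraries of WT, DIDO3ΔE16 and DIDO3ΔCT+HADIDO3. Col5a2 lies near 0.1 TPM in DIDO3ΔCT+HADIDO3 and at 14.9 to 16.3 in DIDO3ΔE16, with WT between them.

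Nfasc, Opn3, Espnl, Armc9 and Lonrf2 were the genes furthest above the chromosome in DIDO3ΔE16 beside C130026I21Rik. Nfasc (chr1:132562690-132570419, minus strand), the axonal adhesion molecule neurofascin, was at 3.4, 2.94 and 2.93 TPM in WT, 28.2, 27.4 and 26.9 in DIDO3ΔE16 and 8.09, 7.92 and 8.46 in DIDO3ΔCT+HADIDO3. It stood 3.07 ± 0.08 above the chromosome in DIDO3ΔE16 (limma adjusted p = 5.41e-05) and 0.99 above in DIDO3ΔCT+HADIDO3 (limma adjusted p = 0.00109), with no overlap between any of the groups. Opn3 (chr1:175660421-175662890, minus strand), an opsin expressed outside the retina, was at 0.817, 1.06 and 0.936 TPM in WT, 12.9, 11 and 9.56 in DIDO3ΔE16 and 3.62, 4.44 and 4.24 in DIDO3ΔCT+HADIDO3 (3.39 ± 0.17, limma adjusted p = 0.000317, in DIDO3ΔE16). The Opn3 site overlaps one of the opposite strand. Espnl (chr1:91345938-91350303, plus strand), an actin-binding protein of hair cells, was at 0.104, 0.060 and 0.178 TPM in WT and 8.04, 7.5 and 7.41 in DIDO3ΔE16 (5.17 ± 0.25, limma adjusted p = 0.0003). It was at 0.413, 0.543 and 1.05 TPM in DIDO3ΔCT+HADIDO3. Armc9 (chr1:86275683-86280284, plus strand), a protein of the ciliary base, was at 0.713, 0.659 and 0.887 TPM in WT, 10.6, 11.8 and 13.6 in DIDO3ΔE16 and 0.928, 1.2 and 0.943 in DIDO3ΔCT+HADIDO3 (3.78 ± 0.17 in DIDO3ΔE16, limma adjusted p = 0.000259). Lonrf2 (chr1:38792509-38798028, minus strand), a protein with a RING finger and a LON domain, was at 2.35, 2.42 and 1.62 TPM in WT, 20.9, 23.5 and 23.4 in DIDO3ΔE16 and 6.87, 6.65 and 6.69 in DIDO3ΔCT+HADIDO3 (3.32 ± 0.16 in DIDO3ΔE16, limma adjusted p = 0.0003).

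The genes furthest below in DIDO3ΔE16 included both Lefty genes, secreted inhibitors of Nodal that are themselves targets of Nodal signalling and lie side by side on the chromosome. Lefty2 (chr1:180897814-180901107, plus strand) was at 205, 206 and 175 TPM in WT, 30.3, 36.6 and 32.8 in DIDO3ΔE16 and 104, 98.6 and 91.7 in DIDO3ΔCT+HADIDO3. It fell below the chromosome in DIDO3ΔE16 (-2.60 ± 0.09, limma adjusted p = 0.000136) and in DIDO3ΔCT+HADIDO3 (-1.38 ± 0.09, limma adjusted p = 0.000465). Lefty1 (chr1:180937976-180940401, plus strand) was at 83.6, 92.6 and 84.9 TPM in WT, 18.9, 23.3 and 18.7 in DIDO3ΔE16 and 18.9, 16.5 and 17.1 in DIDO3ΔCT+HADIDO3. Its departures were -2.15 ± 0.11 (limma adjusted p = 0.000309) and -2.69 ± 0.08 (limma adjusted p = 9.13e-05). Neither gene had a mutant library within the WT range. Lefty1 and Lefty2 are close paralogs, so reads could be split between them.

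Wdfy1, an endosomal adaptor with a FYVE domain, fell at its 3 ends in DIDO3ΔE16. Its main site (chr1:79700262-79705510, minus strand) was at 120.2, 116.2 and 117.4 TPM in WT, 16.3, 16 and 14.0 in DIDO3ΔE16 and 162, 171 and 179 in DIDO3ΔCT+HADIDO3 (-2.98 ± 0.07 in DIDO3ΔE16, limma adjusted p = 5.11e-05). Its second site (chr1:79712874-79714875) was at 17.0, 20.3 and 21.2 TPM in WT, 2.72, 4.02 and 3.41 in DIDO3ΔE16 and 31.1, 31.6 and 32.1 in DIDO3ΔCT+HADIDO3 (-2.55 ± 0.18 in DIDO3ΔE16, limma adjusted p = 0.000726). The DIDO3ΔCT+HADIDO3 libraries lay above WT at both sites. The remaining Wdfy1 site went from a mean of 13.8 TPM in WT to 5.44 in DIDO3ΔE16 (-1.38, limma adjusted p = 0.0021). A minor site of Epb41l5 (chr1:119592824-119595878, minus strand), a cytoskeletal protein needed for the epithelial-mesenchymal transition of gastrulation, was at 6.84, 7.69 and 6.53 TPM in WT, 2.17, 2.40 and 2.94 in DIDO3ΔE16 and 3.87, 4.42 and 5.39 in DIDO3ΔCT+HADIDO3. It departed below in DIDO3ΔE16 (-1.50 ± 0.14, limma adjusted p = 0.00164) and in DIDO3ΔCT+HADIDO3 (-1.0, limma adjusted p = 0.0042). The main Epb41l5 site, with a mean of 42.5 TPM in WT, did not depart (-0.11 in DIDO3ΔE16, limma adjusted p = 0.344, and 0.02 in DIDO3ΔCT+HADIDO3, limma adjusted p = 0.846). Fam178b (chr1:36597971-36600076, minus strand) was at 5.91, 6.31 and 5.43 TPM in WT, 1.99, 2.53 and 1.44 in DIDO3ΔE16 and 11, 9.61 and 11 in DIDO3ΔCT+HADIDO3 (-1.60 ± 0.22 in DIDO3ΔE16, limma adjusted p = 0.00511).

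Abundant transcripts that stayed at or under the WT level in DIDO3ΔCT+HADIDO3 were examined next. Of 409 sites with at least 20 TPM in WT that shared no base with another site of their strand, 147 (35.9%) had a log2 fold change at or below 0 and the median was 0.17. Elsewhere in the genome 4443 of 6633 such sites (67%) were at or below 0, with a median of -0.16. Of the 147, 53 lay within 0.2 of the WT level and 16 were called lower than WT. The smaller share on chromosome 1 restates the displacement by which it was chosen.

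Of the 8 most abundant such sites in WT, 6 were at or below the WT level in DIDO3ΔCT+HADIDO3 and the other two, Tfcp2l1 and Nucks1, were not. Ptma, which encodes the acidic nuclear protein prothymosin alpha, was at 1164, 1117 and 1135 TPM in WT and 1138, 1146 and 1177 in DIDO3ΔCT+HADIDO3. A log2 fold change of -0.08 ± 0.03 (0.02 without scaling of the libraries) went with a distance from the chromosome of -0.36 (limma adjusted p = 0.000575). Bzw1, a regulator of translation initiation, was at 747, 721 and 703 TPM in WT and 579, 580 and 597 in DIDO3ΔCT+HADIDO3 (-0.41 ± 0.03, distance from the chromosome -0.69, limma adjusted p = 0.000122). Uck2, a uridine-cytidine kinase of pyrimidine salvage, was at 717, 731 and 689 TPM in WT and 599, 582 and 547 in DIDO3ΔCT+HADIDO3 (-0.41 ± 0.06, distance -0.69, limma adjusted p = 0.000993). Lamc1, the gamma 1 chain of laminin, was at 524, 541 and 544 TPM in WT and 454, 459 and 446 in DIDO3ΔCT+HADIDO3 (-0.35 ± 0.04, distance -0.63, limma adjusted p = 0.000649). The DIDO3ΔCT+HADIDO3 libraries lay below all WT libraries for Bzw1, Uck2 and Lamc1 and within or around the WT range for Ptma.

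Fn1, which encodes fibronectin, was at 544, 549 and 601 TPM in WT and 497, 516 and 491 in DIDO3ΔCT+HADIDO3 (-0.27 ± 0.06, distance -0.55, limma adjusted p = 0.00259). In DIDO3ΔE16 it was at 537, 27.5 and 516 TPM, with replicate 2 far below the other libraries. Hspd1, the mitochondrial chaperonin HSP60, was at 490, 519 and 525 TPM in WT and 491, 477 and 483 in DIDO3ΔCT+HADIDO3 (-0.18 ± 0.05, distance -0.46, limma adjusted p = 0.00236). Tfcp2l1, a transcription factor of naive pluripotency, lay near the chromosome median: it was at 750, 733 and 740 TPM in WT and 1037, 984 and 981 in DIDO3ΔCT+HADIDO3, a log2 fold change of 0.33 ± 0.04 and a distance from the chromosome of 0.05 (limma adjusted p = 0.446). In DIDO3ΔE16 this Tfcp2l1 site was at 1032, 1000 and 1019 TPM, so its level there was as high although the chromosome was not displaced. Another Tfcp2l1 site departed above the chromosome in both lines, by 1.12 in DIDO3ΔCT+HADIDO3 and 1.11 in DIDO3ΔE16. Nucks1, a nuclear DNA-binding protein, was at 644, 486 and 585 TPM in WT and 632, 632 and 627 in DIDO3ΔCT+HADIDO3, a difference within the spread of the WT libraries.

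Genes of the chromosome were also grouped by function. A gene was represented by its most abundant site, and the lists are read beside all chromosome 1 genes represented in the same way. Over these the median was 0.26 in DIDO3ΔCT+HADIDO3 (n = 828 genes) and -0.0044 in DIDO3ΔE16 (n = 847), and over those with a mean of at least 20 TPM it was 0.20 and -0.12 (n = 432 in both). Of all such genes 10.6% departed above and 7.49% below in DIDO3ΔCT+HADIDO3 and 13.6% and 4.25% in DIDO3ΔE16. Of the genes of at least 20 TPM it was 3.70% and 4.86% in DIDO3ΔCT+HADIDO3 and 2.08% and 4.40% in DIDO3ΔE16. At an unadjusted p below 0.05, 33.6% of the abundant genes were below the chromosome and 21.5% above in DIDO3ΔCT+HADIDO3, and 35.6% and 14.8% in DIDO3ΔE16. Over all sites of the genome the unadjusted shares were 23.2% above and 23.4% below in DIDO3ΔCT+HADIDO3 and 21.4% and 21.6% in DIDO3ΔE16. The median level of a member was 43.9 to 99.3 TPM in the first 7 lists below, from RNA processing to pluripotency, which belong beside the abundant genes, and 0.169 to 18 TPM in the other lists. No list was tested as a set.

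Genes of RNA processing and R-loops, the group nearest to the known role of DIDO3, had a median of 0.05 in DIDO3ΔCT+HADIDO3 and 0.03 in DIDO3ΔE16 (21 genes tested in both). In DIDO3ΔCT+HADIDO3 3 departed below and 0 above (limma), and at an unadjusted p below 0.05 11 were below and 2 above, against 33.6% and 21.5% of abundant genes. Dhx9, a helicase that resolves RNA-DNA hybrids, was at 138, 145 and 126 TPM in WT and 103, 99.5 and 93.2 in DIDO3ΔCT+HADIDO3 (distance -0.85, limma adjusted p = 0.00113). Ncl, the nucleolar protein nucleolin, was at 186, 182 and 167 TPM in WT, 132, 128 and 125 in DIDO3ΔCT+HADIDO3 and 230, 242 and 244 in DIDO3ΔE16 (distance in DIDO3ΔCT+HADIDO3 -0.85, limma adjusted p = 0.00045). Phf3, a binder of the polymerase II tail related to DIDO3, departed below too (-0.82, limma adjusted p = 0.00171), at a site that shares bases with another. Hnrnpu, the most abundant member, was at 444, 364 and 359 TPM in WT and 336, 340 and 370 in DIDO3ΔCT+HADIDO3, with overlapping groups in TPM. Its distance from the chromosome was -0.54 (limma adjusted p = 0.00559), inside the fold threshold. Cnot9, a subunit of the CCR4-NOT deadenylase, was at 307, 319 and 306 TPM in WT and 379, 371 and 357 in DIDO3ΔCT+HADIDO3, 0.14 above WT and -0.14 from the chromosome (limma adjusted p = 0.0965). In DIDO3ΔE16 1 gene departed, Stau2, which binds double-stranded RNA and carries messages in dendrites. It was at 21.5, 20.1 and 18.8 TPM in WT, 9.56, 11.6 and 13.6 in DIDO3ΔE16 (distance -0.85, limma adjusted p = 0.00782) and 37.5, 36.2 and 39.6 in DIDO3ΔCT+HADIDO3. Of 2 minor Stau2 sites in DIDO3ΔE16, one lay at 0.97 (limma adjusted p = 0.0947) and the other at 0.12, so the fall was measured at the main end only.

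Of 17 genes of DNA replication and repair, the exonuclease Exo1 was the departing member in both lines, in opposite directions. It was at 36.6, 34.0 and 33.9 TPM in WT, 87.1, 90.1 and 92.6 in DIDO3ΔE16 and 11.7, 13.0 and 12.1 in DIDO3ΔCT+HADIDO3, with distances of 1.32 (limma adjusted p = 8.25e-05) and -1.88 (limma adjusted p = 0.000102). The list medians were -0.26 in DIDO3ΔE16 and 0.19 in DIDO3ΔCT+HADIDO3. The abundant members Parp1, the sensor of DNA breaks, and Mcm3, of the replicative helicase, lay near the chromosome median in DIDO3ΔCT+HADIDO3. Parp1 was at 382, 395 and 399 TPM in WT and 541, 543 and 521 in DIDO3ΔCT+HADIDO3, and Mcm3 at 239, 246 and 259 and 344, 339 and 309, with log2 fold changes of 0.35 and 0.31. Of 12 tested genes of mitosis and the centromere 1 departed in DIDO3ΔCT+HADIDO3, Hjurp, the chaperone that loads the centromeric histone. It was at 204, 201 and 209 TPM in WT and 146, 140 and 144 in DIDO3ΔCT+HADIDO3 (distance -0.89, limma adjusted p = 0.00022), at a site that overlaps one of the opposite strand. The list medians were 0.25 and, in DIDO3ΔE16, 0.07, where 0 departed (limma). At an unadjusted p below 0.05 1 was above and 1 below in DIDO3ΔE16, against 14.8% and 35.6% of abundant genes.

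The 18 genes of translation had medians of 0.13 in DIDO3ΔCT+HADIDO3 and -0.17 in DIDO3ΔE16. Rpl7, a protein of the large ribosomal subunit, departed below in DIDO3ΔCT+HADIDO3, with 17.1, 14.8 and 13.0 TPM in WT and 9.97, 10.2 and 11.3 there (distance -0.89, limma adjusted p = 0.00246). Rpl7 has processed copies elsewhere in the genome, so its level is uncertain. In DIDO3ΔE16 Eif4e2 departed above (1.11, limma adjusted p = 0.00817) and Farsb below (-2.73, limma adjusted p = 0.00461), both at sites that share bases with others. The 18 genes of mitochondria and metabolism had medians of 0.20 and -0.15. None of them departed in DIDO3ΔCT+HADIDO3 (limma). At an unadjusted p below 0.05 5 were below and 0 above, against 33.6% and 21.5% of abundant genes. Sdhc, of the respiratory complex II, was at 430, 452 and 474 TPM in WT and 812, 827 and 372 in DIDO3ΔCT+HADIDO3, with replicate 3 apart from the others at a site that overlaps the opposite strand. Fh1, the fumarate hydratase of the citric acid cycle, departed below in DIDO3ΔE16, with 4.85, 6.76 and 5.27 TPM in WT and 2.29, 3.60 and 3.02 there (-0.95, limma adjusted p = 0.0254). That call was lost without WT replicate 2-3, WT replicate 4, DIDO3ΔE16 replicate 1 or replicate 3 (-0.78 to -0.97). The 16 genes of the ubiquitin and proteasome list had medians of 0.10 and -0.08 and 0 departing members in either line (limma). At an unadjusted p below 0.05 8 were below and 3 above in DIDO3ΔCT+HADIDO3, against 33.6% and 21.5% of abundant genes, and 3 below and 0 above in DIDO3ΔE16, against 35.6% and 14.8%.

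Pluripotency and Nodal genes (14 tested) had medians of 0.26 in DIDO3ΔCT+HADIDO3 and -0.36 in DIDO3ΔE16, with 2 above and 2 below in the former, against 10.6% and 7.49% of all chromosome 1 genes and 3.70% and 4.86% of those with a mean of at least 20 TPM, and 1 above and 3 below in the latter, against 13.6% and 4.25% and, at that level, 2.08% and 4.40%. Those below included both Lefty genes in each line. Fzd7, a Wnt receptor of ESC, was at 202.2, 200.2 and 194 TPM in WT, 115, 124 and 132 in DIDO3ΔE16 and 153, 164 and 169.6 in DIDO3ΔCT+HADIDO3. It departed below in DIDO3ΔE16 (-0.73, limma adjusted p = 0.000725), and without replicate 1 of that line it lay at -0.68, inside the fold threshold. Kdm5b, a histone H3K4 demethylase, was at 247, 259 and 269 TPM in WT, 312, 313 and 314 in DIDO3ΔE16 and 348, 346 and 345 in DIDO3ΔCT+HADIDO3, at a site that shares bases with another. Esrrg, an orphan nuclear receptor, was under 0.6 TPM in all libraries and departed above in both lines (1.43 with limma adjusted p = 0.00713 in DIDO3ΔCT+HADIDO3, 1.42 with limma adjusted p = 0.0445 in DIDO3ΔE16). The latter call was lost when any library other than DIDO3ΔE16 replicate 2 was left out (1.10 to 1.59).

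Germ layer genes were mostly low, and those that departed in DIDO3ΔE16 did so upward. Of 13 tested there, 5 departed above and 0 below (limma), against 13.6% and 4.25% of all chromosome 1 genes and 10.3% and 4.70% of all sites. At an unadjusted p below 0.05 6 were above and 2 below. The shares were 25.6% and 24.9% of all chromosome 1 genes and 44.3% and 5.91% of those with a mean under 5 TPM. The list median was 0.37. Low genes of the chromosome departed above more often than others in this line: of its 237 tested genes with a mean under 5 TPM 32.9% departed above and 2.95% below, with a median of 0.64. Lmx1a, a homeodomain factor of the dorsal neural tube, was at 1.10, 1.31 and 1.07 TPM in WT and 3.88, 3.76 and 4.09 in DIDO3ΔE16 (1.63, limma adjusted p = 0.00107). The ligand gene Wnt6 departed above in both lines, with 1.33, 1.12 and 0.909 TPM in WT, 5.42, 4.42 and 6.00 in DIDO3ΔE16 (2.10, limma adjusted p = 0.00134) and 4.94, 5.13 and 4.34 in DIDO3ΔCT+HADIDO3 (1.64, limma adjusted p = 0.00179). Tgfb2, a ligand of the TGF-beta family, was at 2.88, 4.04 and 3.94 TPM in WT, 7.76, 9.94 and 9.0 in DIDO3ΔE16 (1.24, limma adjusted p = 0.00639) and 1.17, 1.34 and 1.36 in DIDO3ΔCT+HADIDO3 (-1.79, limma adjusted p = 0.00174). Twist2, a factor of mesenchyme, was above in DIDO3ΔE16 too (1.42, limma adjusted p = 0.0114) and was listed at 0 in all DIDO3ΔCT+HADIDO3 libraries. Tgfb2 and Twist2 followed the order of the fibroblast markers Col1a1, Col1a2 and Postn, which Thy1 and Pdgfra did not, and the part of those cells was not tested. Sox17, a factor of endoderm, departed below in DIDO3ΔCT+HADIDO3, with 3.24, 2.38 and 3.38 TPM in WT and 0.574, 0.522 and 0.563 there (-2.60, limma adjusted p = 0.000633). Of the 12 genes tested in DIDO3ΔCT+HADIDO3, 1 departed above and 2 below, against 10.6% and 7.49% of all chromosome 1 genes. The list median there was 0.29.

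Among 10 genes of the p53 response and apoptosis the median was 0.17 in both lines. In DIDO3ΔCT+HADIDO3 the anti-apoptotic gene Bcl2 departed below, with 1.34, 1.66 and 1.14 TPM in WT and 0.766, 0.868 and 0.786 there (-1.07, limma adjusted p = 0.00931). The stress factor gene Atf3 departed below as well, with 9.07, 9.65 and 9.25 TPM in WT and 5.64, 6.40 and 7.25 there (-0.92, limma adjusted p = 0.00205). Casp8, the initiator caspase of death receptors, was above with 0.164, 0.317 and 0.314 TPM in WT and 0.825, 0.854 and 1.27 in DIDO3ΔCT+HADIDO3 (1.21, limma adjusted p = 0.0267), a call that was lost without any of the 3 DIDO3ΔCT+HADIDO3 libraries (1.05 to 1.29). In DIDO3ΔE16 0 departed (limma). At an unadjusted p below 0.05 3 were above and 3 below there, against 25.6% and 24.9% of all chromosome 1 genes. The p53 inhibitor Mdm4, the most abundant of the list, was at 386, 365 and 358 TPM in WT, 297, 316 and 309 in DIDO3ΔE16 and 442, 446 and 470 in DIDO3ΔCT+HADIDO3.

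Of 12 genes of interferon and innate immunity only 5 were high enough to be tested. Ikbke, a kinase upstream of interferon induction, departed above in both lines, with 1.86, 1.27 and 1.49 TPM in WT, 4.66, 3.80 and 4.85 in DIDO3ΔE16 (1.43, limma adjusted p = 0.00384) and 5.44, 5.41 and 4.86 in DIDO3ΔCT+HADIDO3 (1.34, limma adjusted p = 0.00311). Aim2 departed below in DIDO3ΔCT+HADIDO3 as given above, so members of this list moved both ways in that line. In DIDO3ΔE16 Sp140 departed above (0.95, limma adjusted p = 0.0481) and Stat4 below (-0.71, limma adjusted p = 0.0227). Each of these 2 calls was lost when any of 5 of the 6 libraries was left out, all but WT replicate 1 for Sp140 (0.75 to 1.02) and all but WT replicate 2-3 for Stat4 (-0.56 to -0.74).

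The list of genes of feeder fibroblasts, another cell type that the cultures could hold, had the highest median of the lists in DIDO3ΔE16 and the lowest in DIDO3ΔCT+HADIDO3. In DIDO3ΔE16 11 were tested, with a median of 1.12, and 7 departed above and 0 below (limma), against 13.6% and 4.25% of all chromosome 1 genes and 10.3% and 4.70% of all sites. At an unadjusted p below 0.05 8 were above and 0 below. The shares were 25.6% and 24.9% of all chromosome 1 genes and 44.3% and 5.91% of those with a mean under 5 TPM. Of the chromosome's genes with a mean under 5 TPM, 32.9% departed above and 2.95% below. In DIDO3ΔCT+HADIDO3 7 were tested, with a median of -0.85, and 4 departed below and 1 above, against 7.49% and 10.6% of all chromosome 1 genes and 11.9% and 19.6% of those with a mean under 5 TPM. The filter that keeps values above 0 in every library removed members that were lowest in that line, so this count and median cover only the 7 left: Prrx1 was at 3.21, 3.03 and 3.56 TPM in WT and 0.081, 0 and 0.049 in DIDO3ΔCT+HADIDO3, and Col3a1, Col6a3, Fmod and Dpt were each at 0 in at least 2 of its libraries. Col3a1, a fibrillar collagen, was at 0.630, 1.06 and 0.757 TPM in WT and 2.24, 2.25 and 2.84 in DIDO3ΔE16 (1.45, limma adjusted p = 0.00818) and was listed at 0 in all DIDO3ΔCT+HADIDO3 libraries. Col6a3, a chain of collagen VI, was at 0.461, 0.663 and 0.592 TPM in WT and 2.59, 2.38 and 2.34 in DIDO3ΔE16 (1.88, limma adjusted p = 0.00186). Ddr2, a collagen receptor, was at 4.71, 4.95 and 4.85 TPM in WT, 10.8, 11.2 and 11.2 in DIDO3ΔE16 (1.13, limma adjusted p = 0.000552) and 2.75, 3.06 and 2.71 in DIDO3ΔCT+HADIDO3 (-1.13, limma adjusted p = 0.00122). Serpine2, a secreted protease inhibitor, was at 43.4, 38.7 and 45.1 TPM in WT, 50.8, 51.5 and 51.8 in DIDO3ΔE16 and 16.1, 16.6 and 17.3 in DIDO3ΔCT+HADIDO3 (-1.72, limma adjusted p = 0.000163). Another Serpine2 site departed above the chromosome in DIDO3ΔCT+HADIDO3 (2.15). Igfbp5, a binder of insulin-like growth factors, was the list member that departed above in DIDO3ΔCT+HADIDO3, with 1.28, 1.09 and 1.37 TPM in WT and 4.92, 5.56 and 5.84 there (1.67, limma adjusted p = 0.000869). Fn1 and Igfbp2, the most abundant members, are also expressed by ESC and did not depart in DIDO3ΔCT+HADIDO3. The DIDO3ΔE16 calls of the low genes Fmod (1.17, limma adjusted p = 0.0338) and Prelp (1.06, limma adjusted p = 0.0341) were each lost when any of 5 of the 6 libraries was left out, all but WT replicate 4 for Fmod (1.02 to 1.3) and all but DIDO3ΔE16 replicate 1 for Prelp (0.83 to 1.13). As for Col5a2, the fibroblast markers Col1a1, Col1a2 and Postn of other chromosomes moved in the same order, whereas Thy1 and Pdgfra did not, and their part in these results was not tested.

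**Figure D5:**
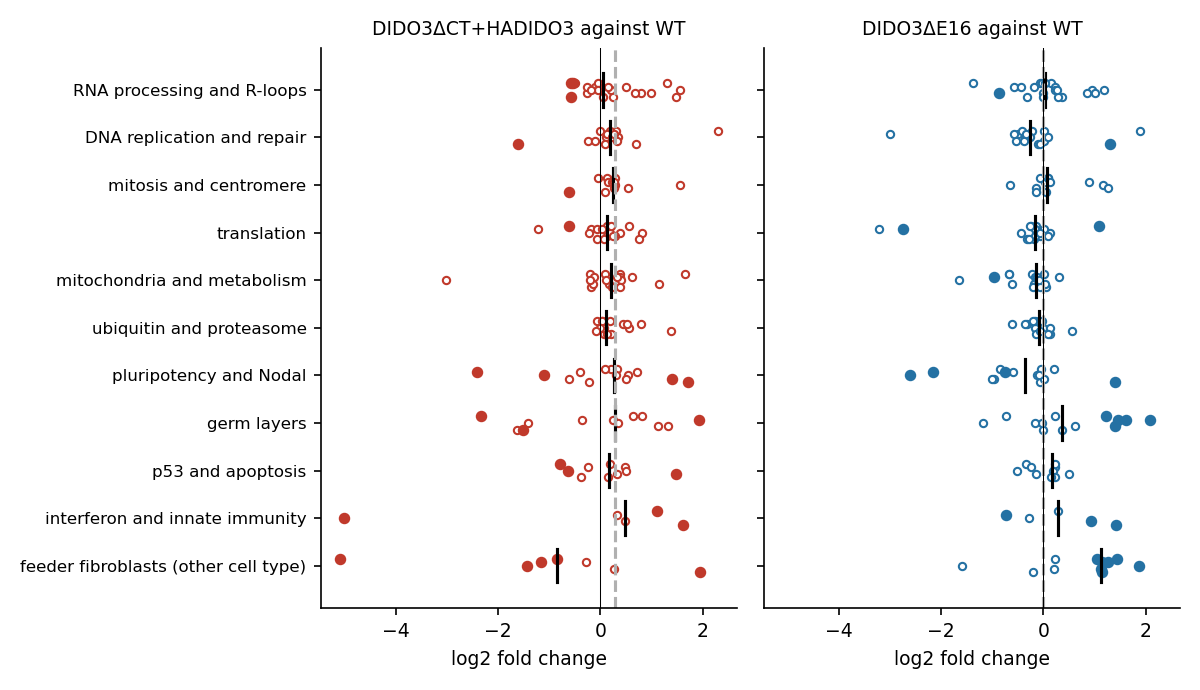
Log2 fold change against WT (x axis) of the tested genes of each list (y axis) in DIDO3ΔCT+HADIDO3 (left) and DIDO3ΔE16 (right), with filled circles for genes that departed from the chromosome, a black tick for the list median and a dashed line for the median of all tested chromosome 1 sites (0.29 and -0.01). The fibroblast list lies lowest in DIDO3ΔCT+HADIDO3 (median -0.85) and highest in DIDO3ΔE16 (1.12).

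Sites at 0 in some libraries entered a comparison only where all its libraries were above 0. Of these, 56 reached a mean of 1 TPM in at least 1 group, and 26 of them shared no base with another site. The following examples were picked after their values were seen. Cavin2, a coat protein of caveolae, was at 6.85, 7.33 and 7.66 TPM in WT and 13.6, 18 and 15.8 in DIDO3ΔE16 and was listed at 0 in all DIDO3ΔCT+HADIDO3 libraries, the order of the fibroblast markers Col1a1, Col1a2 and Postn, whose part was not tested. Rfx8, of the RFX family of factors, was at 0.028, 0.134 and 0 TPM in WT, 3.03, 3.74 and 4.30 in DIDO3ΔE16 and 11.1, 10.4 and 13.5 in DIDO3ΔCT+HADIDO3. Creg2, a secreted glycoprotein of the brain, was at 0, 0.138 and 0.077 TPM in WT, 0.523, 0.238 and 0.429 in DIDO3ΔE16 and 5.89, 6.63 and 6.75 in DIDO3ΔCT+HADIDO3. Ankmy1 was listed at 0 in all WT and DIDO3ΔCT+HADIDO3 libraries and was at 1.67, 2.62 and 2.52 TPM in DIDO3ΔE16. No fold change is given against a group at 0.

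Genes with several separate 3′ ends allowed a look at whether the ends of a gene left the chromosome together. In DIDO3ΔCT+HADIDO3 158 genes had at least 2 tested sites that shared no base, and the median distance between the highest and the lowest log2 fold change of a gene was 0.35. At 43 of the 158 (27.2%) at least 1 site departed, and at 13 (8.23%) all did, 11 of them in the same direction. Among 2343 such genes of the other chromosomes, each site relative to its own chromosome, the shares were 28.2% and 6.02% and the median distance was 0.45. Sites of 1 gene departed in opposite directions at 3 genes (1.90%), against 0.683% elsewhere. They were Serpine2, with sites at -1.72 and 2.15 from the chromosome, Gin1 (-1.16 and 1.10) and Tgfbrap1 (-0.74 and 0.73). In DIDO3ΔE16 there were 154 such genes with a median distance of 0.50, of which 43 (27.9%) had a departing site, 9 (5.84%) had all sites departing, 8 of them in the same direction, and 3 (1.95%) had sites departing in opposite directions. Elsewhere 23.9%, 3.52% and 1.07% of 2332 genes did, with a median distance of 0.41. These were Armc9, whose 7 sites ran from -1.06 to 3.78, Fam178b (-1.60 and 1.56) and Nvl (-0.81 to 1.07).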

How the data were processed

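Paired-end reads of stranded RNA libraries had been aligned by the authors with BWA-MEM (0.7.15) on mm10, duplicates were taken out with Picard, and StringTie (1.3.3) was limited to given features, with no strand option stated: UCSC 3′ untranslated regions lengthened by 2 kb. The TPM values (transcript abundance normalized for length and library by StringTie) were used as deposited by the authors. Mean coverage per feature, also deposited, served only for depth (1.46 to 2.62 Gb per library). The TPM > 0 filter and edgeR were the authors' approach to testing. TPM are not counts, so limma took the place of edgeR here.

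TPM of features with the same coordinates and strand were summed to sites. Symbols came from GENCODE M21, by a transcript end within 50 bp or else by exon overlap (42303 of 43031 features). Sites above 0 in every library compared were scaled by a trimmed mean (30% at each end), transformed as log2(TPM + 0.1) and fitted with limma (3.58.1, R 4.3.3) with trend and robust moderation, 2-sided, adjusted by Benjamini-Hochberg over all chromosomes. Fold changes are on that scale and understate low genes. For departures, the median deviation of each chromosome with 50 or more sites was subtracted in each library first. Thresholds were 0.7 (log2) and an adjusted p of 0.05. The fits were tested on simulated data. Summaries used Python (3.11.15), numpy (2.4.6) and pandas (2.3.3).

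Named sites were the 6 furthest above and below per line (at least 5 TPM in either group, no shared base, groups apart), the 6 most abundant sites not above WT in DIDO3ΔCT+HADIDO3 and the 8 most abundant in WT (at least 20 TPM), and of each list the 2 most abundant members and departing ones. Not every site under this rule is described, and the results of some genes are not reported here. Chromosome, lists and tests were chosen with earlier results of these data known. The alternatives tried were other pseudocounts, filters, scalings, ways of summing, moderation without trend, all libraries in 1 fit and a covariate for the name prefix. They also included a stricter adjusted p, leaving out each library, a replicate block and, added after seeing the data, only sites with 1 feature and no shared base.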

Additional observations from a re-analysis of the deposited data

Results flagged for a closer look

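At 12 sites of the chromosome the lines departed from it in opposite directions, counting sites whose mean reached 5 TPM in 1 or more groups, that shared no base with another site of the strand, and at which the lines also differed from each other past the same thresholds. The sites were picked for that, so a large difference between the lines follows from the choice and is given as a description, without a test. No share of such sites on other chromosomes is given, so nothing is read from their number or from how many went each way. Values are the centred log2 difference of DIDO3ΔE16 from DIDO3ΔCT+HADIDO3 and mean TPM in WT, DIDO3ΔE16 and DIDO3ΔCT+HADIDO3, each for a single 3′ site.

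At 10 of them DIDO3ΔE16 was above and DIDO3ΔCT+HADIDO3 below. The exonuclease gene Exo1 differed by 3.17, with 34.9, 89.9 and 12.3 TPM. Cnga3, a cyclic nucleotide-gated channel of cones, differed by 2.40, with 27.2, 60.5 and 14.1 TPM. Ankrd45 differed by 2.79, with 10.3, 34.1 and 6.02 TPM. A minor site of Smarcal1, an annealing helicase of stalled forks, differed by 1.85, with 3.03, 6.75 and 2.27 TPM, whereas its most abundant site was at 11.3, 10.9 and 13.0 TPM and departed in neither line (-0.10 and -0.19). A further site of Armc9 differed by 1.92, with 4.48, 10.7 and 3.43 TPM.

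The collagen gene Col5a2 differed by 6.63, with 6.19, 15.6 and 0.096 TPM. Colgalt2, a collagen galactosyltransferase, differed by 4.06, with 1.66, 6.16 and 0.368 TPM. The collagen receptor gene Ddr2 differed by 2.23, with 4.84, 11.1 and 2.84 TPM. Tgfb2 differed by 3.0, with 3.62, 8.90 and 1.29 TPM, and Ptgs2 by 5.08, with 9.90, 20.9 and 0.669 TPM. Of the fibroblast markers of other chromosomes, Col1a1, Col1a2 and Postn moved in the same order and Thy1 and Pdgfra did not, and the part of fibroblast RNA in these values was not tested.

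At the remaining sites the order was the reverse. A minor site of Angel2 differed by -1.98, with 8.72, 4.36 and 20.4 TPM, whereas its main site was at 47.5, 59.8 and 81.6 TPM and departed in neither line (0.28 and 0.39). Ppp1r42 differed by -1.76, with 3.13, 1.75 and 7.62 TPM.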

How the results depend on the processing

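The chromosome 1 median in DIDO3ΔCT+HADIDO3 (0.29) stayed above 0 under each alternative: 0.25 with features not summed, 0.26 without a filter on low values, 0.39 without scaling, 0.23 with a pseudocount of 1, 0.31 with scaling factors from the other chromosomes, 0.27 over sites sharing no base, 0.29 over those that also had 1 feature (added after seeing the data) and 0.27 to 0.30 when 1 library was left out. In DIDO3ΔE16 (-0.01) it took either sign: -0.037 with the name prefix as a covariate, -0.061 at a mean of at least 1 TPM, 0.048 without a filter, 0.054 without scaling and -0.044 with quantile normalization. Between the lines (-0.27) it was -0.35 at a mean of at least 1 TPM, -0.20 without a filter, -0.22 with a pseudocount of 1, -0.32 with quantile normalization and -0.30 to -0.26 when 1 library was left out. All these are medians of chromosome 1 alone, and a change of scaling moves the sites of every chromosome.

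With the replicate number as a block, called and departing sites both fell to 0 in each line, from 269 and 219 in DIDO3ΔCT+HADIDO3 and 207 and 206 in DIDO3ΔE16. That fit had 1 residual degree of freedom, and at an unadjusted p below 0.05 it still held 469 (410 after centring) and 376 (364) sites. Same-numbered libraries correlated by 0.0033 to 0.0341 only, so the replicate block rests on a shared number. Over sites with 1 feature and no shared base, fewer sites being tested, 169 were called and 135 departed in DIDO3ΔCT+HADIDO3. At an adjusted p below 0.01, 136 sites departed in DIDO3ΔE16. Quantile normalization changed the DIDO3ΔE16 split of called sites from 144 higher and 63 lower to 109 and 79.

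Under other pseudocounts, filters and scalings and with 1 library left out, the block not included, of 893 values for 75 departing results 835 kept their call, 58 (13 results) lost it and 0 reversed. Of 431 for 36 results of DIDO3ΔCT+HADIDO3 that did not depart, 30 (7 results) lost and 11 (6 results) gained an adjusted p below 0.05 against WT, and 8 changed sign: Ptma (0.020), Mrpl15 (0.041) and Rnf2 (0.018) without scaling, Mrpl15 (0.070) and Rnf2 (0.052) with quantile normalization, and, with 1 library left out, Nucks1 (-0.064 to 0.13) and Farsb (-0.51 to 0.12). The cause was not tested.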
